A study of Mus musculus with 9 samples.

Results

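Olfactory receptor genes were examined in monocytes taken from the spleens of wild-type mice. The set holds every gene named Olfr and a number whose deposited counts, summed over the 9 libraries, came to 10 or more. There were 48 such genes of 1190 olfactory receptor genes in the table, which lists 26770 gene rows in all. The counts of these same libraries chose the genes, so their detection is a description and not a finding.

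RNA sequencing was done on 3 groups of 3 libraries, all from wild-type cells. Untreated cells received the solvent dimethyl sulfoxide (DMSO), diluted 1 in 1000 in the series text. LPS cells received 40 ng/ml lipopolysaccharide, a component of the bacterial outer membrane, for 5 hours. A last group was primed with lipopolysaccharide and then received 20 µM octanal, an odorant aldehyde, for 18 hours. Labels of single samples count upward within a group instead (18, 19 and 20 hours of octanal, DMSO at 1 in 1000, 1001 and 1002), and each group was taken as 1 condition. The group given LPS and then octanal is called LPS-octanal from here on. The sources used here give neither strain and age nor whether replicates were separate animals or cultures, and every p-value therefore reflects the spread among these libraries alone. In the comparison of both LPS groups, octanal, hours of culture and solvent cannot be told apart. The labels give DMSO for untreated cells only and hours for treated cells only. In LPS against untreated, LPS, solvent and hours of culture therefore cannot be told apart either. The same holds for LPS, octanal, solvent and hours in LPS-octanal against untreated. The series title names Olfr2, which was not analysed here.

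Olfactory receptors form the largest family of G-protein-coupled receptors in the mouse. In the nose each sensory neuron expresses a single one of them, and a bound odorant acts through the G protein subunit encoded by Gnal and the adenylyl cyclase encoded by Adcy3 to open a cyclic nucleotide-gated channel. The receptor genes lie in clusters, and each carries its whole coding sequence in 1 exon, as did all 48 genes here, of which 47 are annotated as protein coding. Several of them have been found in tissues outside the nose.

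Detection was sparse. Of the 1190 genes, 1054 had no count in any library and 88 had 1 to 9 counts in all. The 48 genes held 3463 of the 3765 olfactory receptor counts (92.0%), and Olfr482 alone held 23.0% of them. The 9 highest genes held 69.5%, while the median gene had a summed count of 24.5 and 33 genes stayed under 50. Each library had counts for 26 to 39 of the 48 genes, with 260 to 545 counts in all, out of library totals of 29594291 to 38388421. Detection was uneven between libraries: 10 genes had a count in all 9 libraries, 18 in 6 to 8, 19 in 3 to 5, and 1, Olfr1418, in fewer than 3. Just above the minimum stood Olfr544, Olfr460 and Olfr530 with 10 counts each, and just below it Olfr974 and Olfr166 with 9.

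Levels per length were low as well. The deposited FPKM (fragments scaled by transcript length and sequencing depth) averaged 0.930 for Olfr482 over the 9 libraries, 0.432 for Olfr99, 0.269 for Olfr173 and 0.250 for Olfr60. Olfr482 was the 1 gene with a mean of 0.5 or more, and 10 genes reached 0.1. The highest value of any of them in a library was 1.29, for Olfr482 in LPS replicate 2. By mean FPKM, Olfr482 stood at percentile 46.2 of all rows with a count, so the most abundant olfactory receptor gene lay below the median detected gene.

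**Figure D1:**
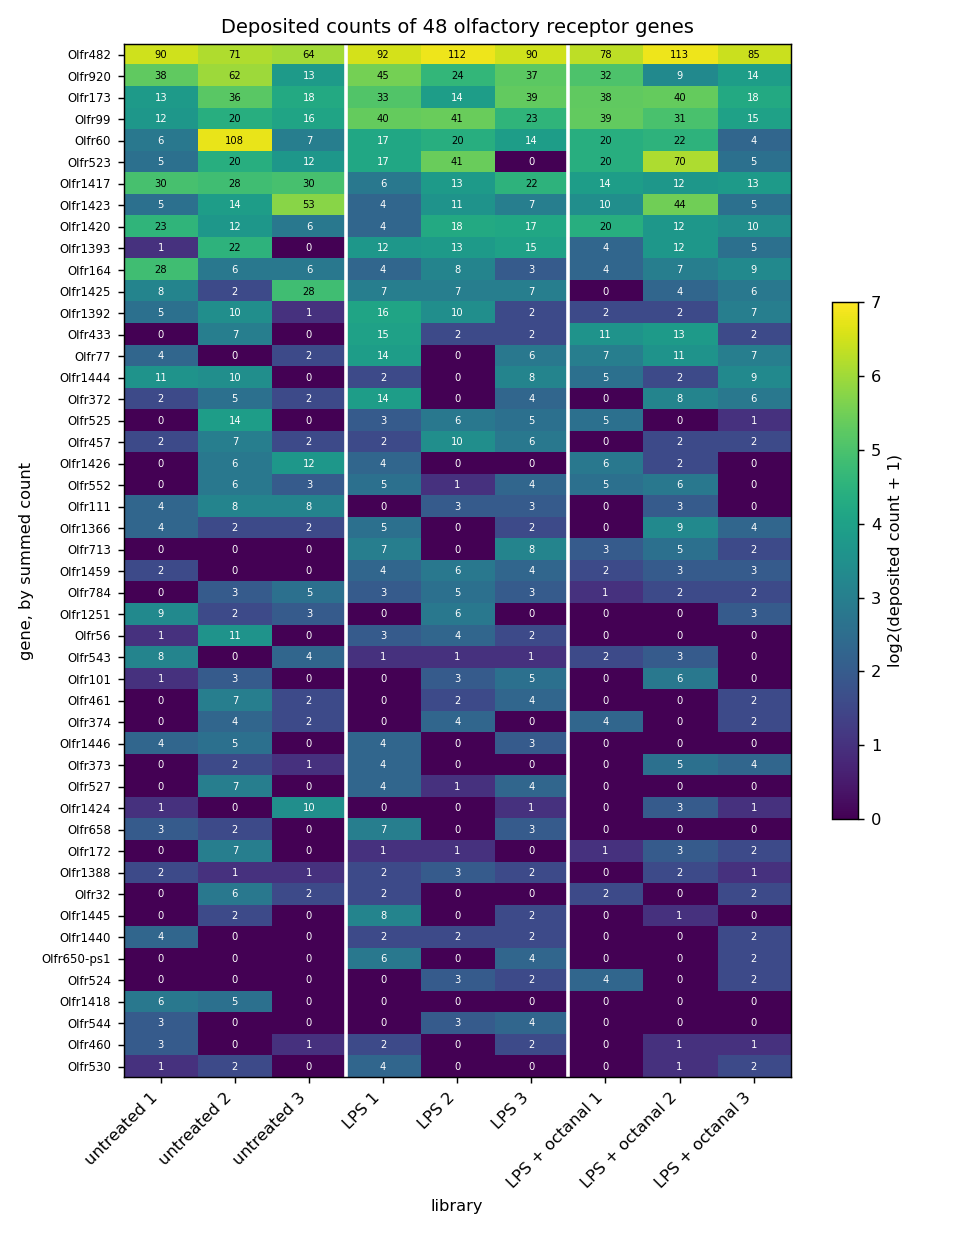
Deposited counts of the 48 olfactory receptor genes (rows, ordered by summed count) in the 9 libraries (columns), with the count printed in each cell and colour showing log2(count + 1). Olfr482 was at 64 to 113 counts in every library, whereas Olfr60 reached 108 in untreated replicate 2 and at most 22 elsewhere.

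The counts are whole numbers, but across the table the value 2 was listed 6363 times and the value 1 only 1484 times, and in olfactory receptor rows 121 and 66 times. A single count is therefore not the usual smallest step, and an interval from counting error would be too narrow, so single-library values are given without one.

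The sequences below come from the most conserved part of these receptors, and show how little the neighbouring pairs among them differ there. Each is a run of 48 coding bases from the GENCODE transcript set, 5′ to 3′, around the end of the third transmembrane segment. Capitals mark the 18 bases of the conserved motif there, the hallmark of the family. Each stretch was located by a search for this motif (MA, then Y, F, V or I, then DR, then Y, F or H) in long open frames. The likeness of the capitals therefore follows from the search. It matched in 37 of the 48 genes, and a gene without a match may carry a variant form. Olfr433, tested below, had no match and is not printed.
Olfr482: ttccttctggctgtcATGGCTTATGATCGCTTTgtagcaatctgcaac
Olfr920: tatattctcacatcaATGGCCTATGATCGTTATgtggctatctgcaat
Olfr173: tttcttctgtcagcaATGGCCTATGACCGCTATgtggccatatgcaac
Olfr172: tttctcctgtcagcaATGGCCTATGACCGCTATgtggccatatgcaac
Olfr99: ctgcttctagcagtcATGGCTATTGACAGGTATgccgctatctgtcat
Olfr60: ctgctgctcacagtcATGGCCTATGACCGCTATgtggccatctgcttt
Olfr523: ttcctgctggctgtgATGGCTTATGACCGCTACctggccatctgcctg
Olfr1417: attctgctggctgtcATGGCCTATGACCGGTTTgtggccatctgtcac
Olfr1418: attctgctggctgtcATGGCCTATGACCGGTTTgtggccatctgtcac
Olfr1423: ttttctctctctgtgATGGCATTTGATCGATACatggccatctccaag
Olfr1420: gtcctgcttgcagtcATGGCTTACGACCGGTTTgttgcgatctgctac
Olfr1393: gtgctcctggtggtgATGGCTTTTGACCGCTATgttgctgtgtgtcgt
Olfr1392: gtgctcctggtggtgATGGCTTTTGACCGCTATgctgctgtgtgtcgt

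Olfr1417 and Olfr1418 had 0 differences over these 48 bases, and their transcripts were 98.7% identical over 934 nt. Olfr173 and Olfr172 differed by 1 base, T6C, counted from the first printed base, and were 95.2% identical over 1076 nt. Olfr1393 and Olfr1392 likewise differed by 1 base, T35C, and were 95.4% identical over 981 nt. How the authors' counting placed reads that match several genes is unknown from the sources at hand, so the counts within each of these pairs are uncertain.

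Olfr482 (ENSMUSG00000059031; GRCm38 chromosome 7, 108092999 to 108097586, minus strand) had the highest summed count of the 48. Its counts were 90, 71 and 64 in untreated, 92, 112 and 90 in LPS, and 78, 113 and 85 in LPS-octanal libraries. As CPM (counts scaled to a common library total after TMM adjustment), these gave 2.34 ± 0.0779 in untreated, 2.79 ± 0.626 under LPS and 2.69 ± 0.406 under LPS-octanal (mean ± SD, n = 3 per group, as in all CPM values that follow). The groups overlapped. Its log2 fold change was 0.25 (SE 0.258, edgeR adjusted p = 0.48) in LPS against untreated, -0.05 (SE 0.257, edgeR adjusted p = 0.92) in LPS-octanal against LPS, and 0.20 (SE 0.258, edgeR adjusted p = 0.64) in LPS-octanal against untreated. That of LPS-octanal against LPS became positive without LPS replicate 2 or LPS-octanal replicate 1.

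Its annotated transcript of 2612 nt carries a long stretch shared with another gene. The coding part ends at base 1014, and bases 1032 to 2413 match the mRNA of Ramac at 98.7% identity, on the same strand. Ramac encodes an activating subunit of the enzyme that methylates the mRNA cap, and its gene lies elsewhere on chromosome 7 (81762925 to 81769491). A processed pseudogene, Gm44870 (108094129 to 108094485), overlaps an exon of Olfr482 on the same strand and was not analysed here.

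Ramac was far more abundant, at 59.6 ± 8.71 CPM in untreated, 62.9 ± 2.51 under LPS and 60.1 ± 2.26 in LPS-octanal libraries. Olfr482 counts amounted to 3.26% to 5.42% of the Ramac counts in every library. Neither gene passed the test in any comparison (Ramac: edgeR adjusted p of 0.62, 0.74 and 0.96). Whether reads counted for Olfr482 came from Ramac was not tested.

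**Figure D2:**
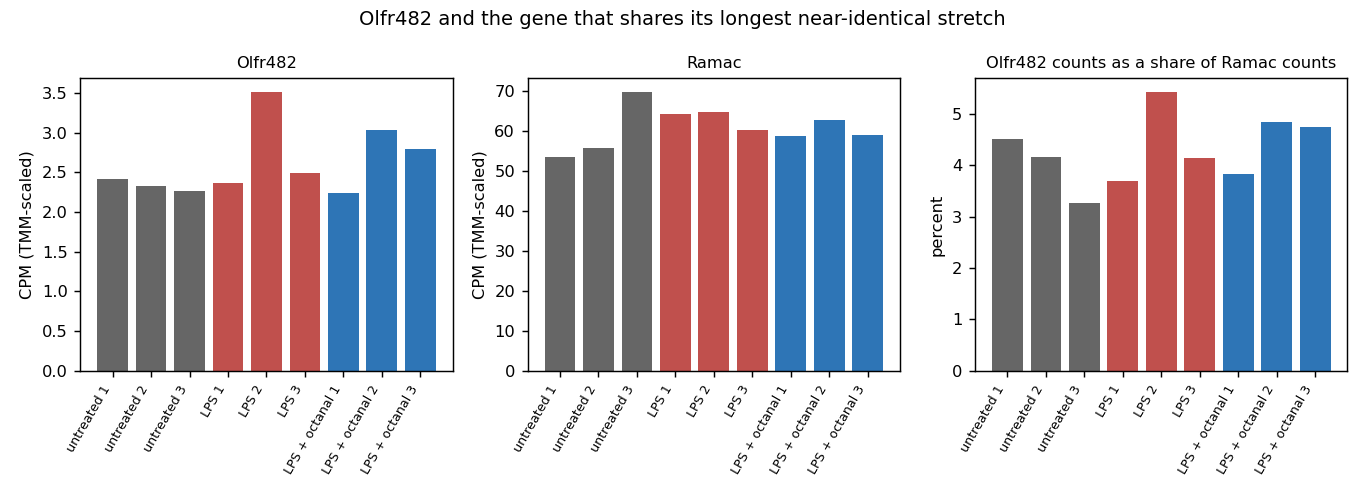
Level of Olfr482 (left) and of Ramac (middle) in CPM, and Olfr482 counts as a percent of Ramac counts (right), 1 bar per library, with untreated in grey, LPS in red and LPS-octanal in blue. The share lies between 3.26% and 5.42% in all 9 libraries.

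The count filter (edgeR's filterByExpr by group) passed 12 of the 48 genes: Olfr482, Olfr920, Olfr173, Olfr99, Olfr60, Olfr523, Olfr1417, Olfr1423, Olfr1420, Olfr1393, Olfr1392 and Olfr433. They were tested in a single fit of all 15447 genes that passed, with edgeR's quasi-likelihood test, and a gene was called where its p, adjusted by Benjamini-Hochberg over all of them, was under 0.05.

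None of the 12 was called in LPS against untreated, where 32.8% of all tested genes were called. None was called in LPS-octanal against LPS, where 0% of tested genes were called, nor in LPS-octanal against untreated, where 8.67% were. At an unadjusted p under 0.05 there were 1, 0 and 1 of the 12, Olfr1417 in both cases. DESeq2's Wald test called 0 in each comparison but gave an adjusted p for only 11, 1 and 11 of them, and limma on log2 FPKM called 0 of the 11 it tested. Of all 15447 genes, DESeq2's Wald test called 6212, 1800 and 2798, and over the rows it tested limma called 5517, 0 and 1271. With the 6 libraries of both LPS groups alone, edgeR called 1380 genes in LPS-octanal against LPS. The edgeR test without a count filter tested all 48 and called 0, against 20.7%, 1.29% and 5.61% of all rows with a count, and 2, 0 and 3 of the 48 had an unadjusted p under 0.05. The lowest adjusted p there was 0.098 for Olfr713, 0.32 for Olfr56 and 0.21 for Olfr56 in the 3 comparisons. The comparisons against untreated share the same 3 control libraries.

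**Figure D3:**
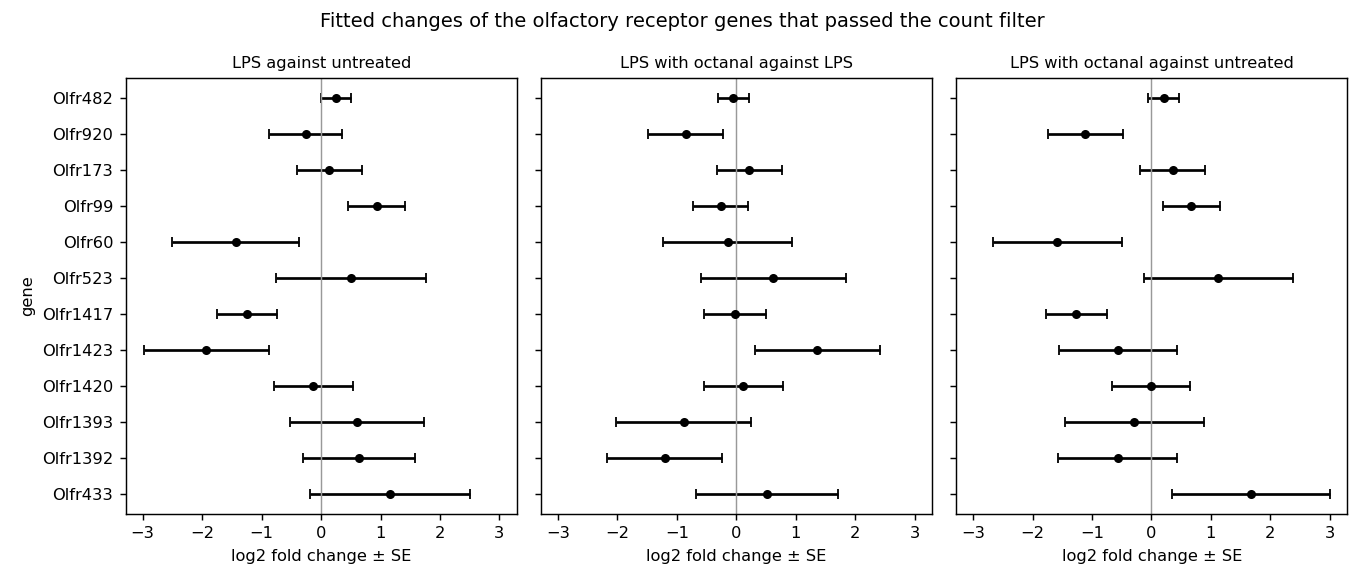
Fitted log2 fold change with its standard error for the 12 olfactory receptor genes that passed the count filter, in each of the 3 comparisons on 1 common axis. None passed an adjusted p of 0.05, and Olfr1417 lies more than 2 standard errors below 0 in both comparisons against untreated.

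Olfr1417 (ENSMUSG00000048292; chromosome 19, 11826803 to 11839219, minus strand) had the lowest adjusted p of the 12 in both comparisons against untreated. It had 30, 28 and 30 counts in untreated, 6, 13 and 22 in LPS, and 14, 12 and 13 in LPS-octanal libraries. All 3 untreated libraries were above all 6 treated ones, at 0.929 ± 0.128 CPM against 0.390 ± 0.228 and 0.384 ± 0.0552. Its log2 fold change was -1.25 (SE 0.508, edgeR adjusted p = 0.089) in LPS against untreated, with adjusted p between 0.058 and 0.22 over 16 alternative settings. In LPS-octanal against untreated it was -1.27 (SE 0.510, edgeR adjusted p = 0.15), with 0.11 to 0.33 over the alternatives. Neither passed the test.

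Its near-identical neighbour Olfr1418 (11852587 to 11861066) had 6, 5 and 0 counts in untreated and none in the 6 treated libraries, and was the 1 gene of the 48 with all its counts in a single group. With 3 counts over a group as a nominal floor, 0 counts stand for up to 0.0281 CPM under LPS and 0.0293 under LPS-octanal. The mean in untreated was 0.108 ± 0.0939. This floor takes counting error alone and is likely too low, since replicates differed beyond counting error. Stx3, a syntaxin of membrane fusion that lies 7400 bp from Olfr1417 on the same strand and was chosen after its values were seen, fell from 91.7 ± 6.53 to 28.0 ± 5.24 CPM in LPS (log2 fold change -1.71, SE 0.169, edgeR adjusted p = 0.00066). Its part in the Olfr1417 counts was not tested.

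Olfr99 (ENSMUSG00000061972; chromosome 17, 37279043 to 37283460, minus strand) lies 4559 bp from H2-M3, a non-classical major histocompatibility complex gene. It had 12, 20 and 16 counts in untreated, 40, 41 and 23 in LPS, and 39, 31 and 15 in LPS-octanal libraries. The LPS libraries were mostly higher, but the lowest of them, at 0.98 ± 0.33 CPM for the group, overlapped the untreated ones at 0.515 ± 0.172. The log2 fold changes of 0.93 (SE 0.480, edgeR adjusted p = 0.16) under LPS and 0.67 (SE 0.481, edgeR adjusted p = 0.39) in LPS-octanal against untreated did not pass.

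Olfr920 (ENSMUSG00000061039; chromosome 9, 38752299 to 38760117, plus strand) had 38, 62 and 13 counts in untreated, 45, 24 and 37 in LPS, and 32, 9 and 14 in LPS-octanal libraries. High and low libraries occurred in every group, and the means were 1.17 ± 0.795, 0.978 ± 0.207 and 0.541 ± 0.347 CPM. Its log2 fold change was -0.85 (SE 0.630, edgeR adjusted p = 0.44) in LPS-octanal against LPS and -1.11 (SE 0.632, edgeR adjusted p = 0.28) against untreated. With a library left out these ranged from -1.44 to -0.49 and from -1.72 to -0.47.

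Olfr173 (ENSMUSG00000049362; chromosome 16, 58795207 to 58800268, minus strand) had 13, 36 and 18 counts in untreated, 33, 14 and 39 in LPS, and 38, 40 and 18 in LPS-octanal libraries. Olfr1420 (ENSMUSG00000060878; chromosome 19, 11886565 to 11898079, plus strand) had 23, 12 and 6, then 4, 18 and 17, then 20, 12 and 10. In both genes every group held high and low libraries, and no fitted change exceeded its standard error.

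In several of the 12, 1 library held a large share of the counts. Olfr60 (ENSMUSG00000060112; chromosome 7, 140343815 to 140361671, minus strand) had 6, 108 and 7 counts in untreated, 17, 20 and 14 in LPS, and 20, 22 and 4 in LPS-octanal libraries. Untreated replicate 2 held 49.5% of its counts. Its log2 fold change of -1.44 (SE 1.07, edgeR adjusted p = 0.33) in LPS against untreated became 1.20 without that library, and the -1.58 (SE 1.08, edgeR adjusted p = 0.37) of LPS-octanal against untreated became 1.08.

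Some neighbours of Olfr60 were highest in the same library. Olfr525 had 14 of its 34 counts there and Olfr527 7 of 16, whereas Olfr524 had 0 and Olfr530 2. The 5 genes from Olfr524 to Olfr530, Olfr60 included, summed to 131 counts in untreated replicate 2, against 7 to 30 in the others. Of these 131, Olfr60 itself gave 108. The nearest tested gene outside the family, 5830411N06Rik at 43079 bp, also stood out there, with 88 counts against 9 and 14 in the other untreated libraries. It had 30, 40 and 41 counts in LPS and 8, 52 and 14 in LPS-octanal libraries. This library also had the highest summed T cell marker level of its group, 626 CPM against 128 and 447, while all 6 treated libraries, with 4 to 22 Olfr60 counts, had higher T cell marker levels of 667 to 1349 CPM. The part of either in the Olfr60 counts was not tested.

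Olfr1423 (ENSMUSG00000067529; chromosome 19, 12031787 to 12041317, minus strand) had 5, 14 and 53 counts in untreated, 4, 11 and 7 in LPS, and 10, 44 and 5 in LPS-octanal libraries. Its adjacent genes Olfr1424, Olfr1425 and Olfr1426, on the same strand, were likewise highest in untreated replicate 3, with 10, 28 and 12 counts. Olfr1425 was 95.3% identical to Olfr1424 over 934 nt and 95.2% identical to Olfr1426 over 953 nt. How their counts divide among them is therefore uncertain too. The 4 genes together had 103 counts in that library, 53 in LPS-octanal replicate 2 and 12 to 22 in the other 7. The log2 fold change of Olfr1423 was -1.93 (SE 1.06, edgeR adjusted p = 0.19) in LPS against untreated and 1.36 (SE 1.05, edgeR adjusted p = 0.46) in LPS-octanal against LPS. The former became -0.47 without untreated replicate 3 and the latter 0.11 without LPS-octanal replicate 2.

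Another block lies on chromosome 16. Olfr164 (ENSMUSG00000050742; 19284104 to 19314064, minus strand) had 28 counts in untreated replicate 1 and 3 to 9 in the other libraries. Olfr165 and Olfr166, which fell short of 10 summed counts, had 7 counts each in that same library and 0 and 2 in the other 8 together. These blocks were picked out after their values were seen, and no test was made of them.

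**Figure D4:**
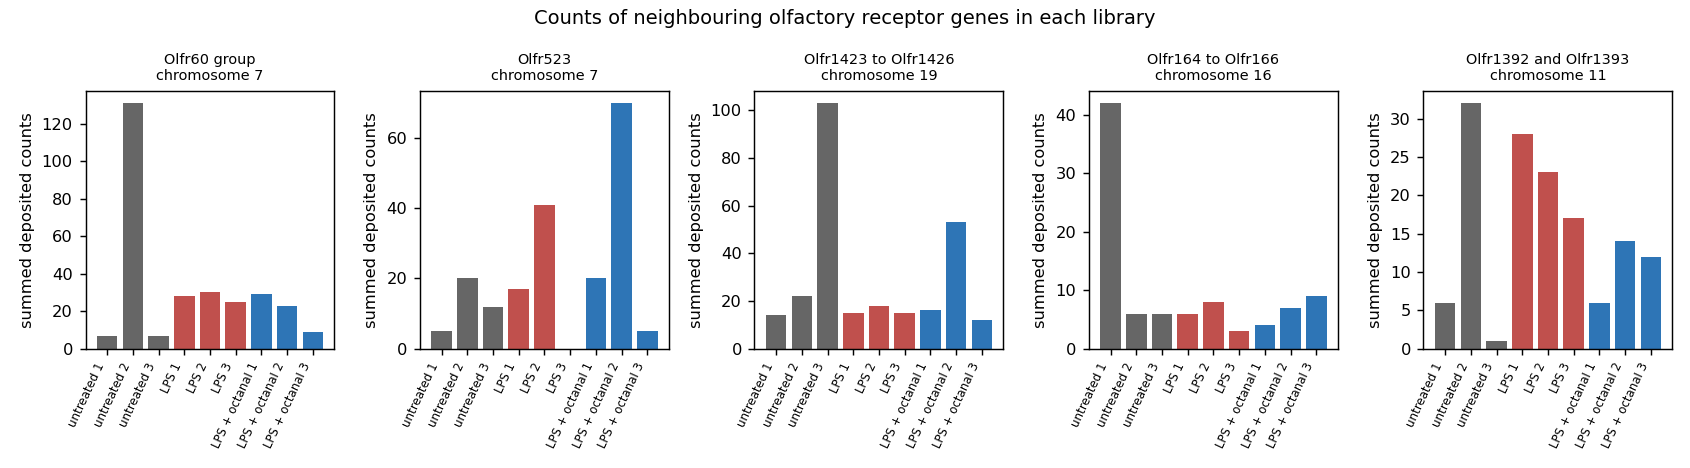
Summed deposited counts of 5 blocks of olfactory receptor genes in each library (untreated grey, LPS red, LPS-octanal blue), each panel with its own count axis starting at 0. The block of Olfr60 reaches 131 counts in untreated replicate 2, 108 of them from Olfr60 itself. That of Olfr1423 reaches 103 in untreated replicate 3 and that of Olfr164 reaches 42 in untreated replicate 1.

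Olfr523 (ENSMUSG00000051051; chromosome 7, 140173217 to 140178758, plus strand) was uneven in every group. It had 5, 20 and 12 counts in untreated, 17, 41 and 0 in LPS, and 20, 70 and 5 in LPS-octanal libraries. LPS-octanal replicate 2 held 36.8% of its counts, and the groups overlapped. Olfr433 (ENSMUSG00000045381; chromosome 1, 174040705 to 174044411, plus strand) had 0, 7 and 0, then 15, 2 and 2, then 11, 13 and 2 counts. Its log2 fold change in LPS-octanal against untreated was 1.67 (SE 1.32, edgeR adjusted p = 0.44), and 1.06 without untreated replicate 1. Without untreated replicate 2 it was 6.11, a value set by the prior count because the other untreated libraries are at 0.

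Olfr1393 (ENSMUSG00000059864; chromosome 11, 49278304 to 49282769, plus strand) had 1, 22 and 0 counts in untreated, 12, 13 and 15 in LPS, and 4, 12 and 5 in LPS-octanal libraries. The LPS libraries agreed closely (0.377 ± 0.0592 CPM) while the untreated ones did not (0.249 ± 0.408). With all libraries its log2 fold change in LPS against untreated was 0.60 (SE 1.13, edgeR adjusted p = 0.71). Without untreated replicate 2 it was called (log2 fold change 4.33, edgeR adjusted p = 0.014, the lowest of its alternatives, which reached 0.98), a fold that rests on 1 untreated count.

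Olfr1392 (ENSMUSG00000101750; 49285282 to 49295891), 2513 bp downstream on the same strand, had 5, 10 and 1 counts, then 16, 10 and 2, then 2, 2 and 7. Its log2 fold change was -1.20 (SE 0.971, edgeR adjusted p = 0.48) in LPS-octanal against LPS, -2.14 without LPS-octanal replicate 3 and -0.67 without LPS replicate 1.

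**Figure D5:**
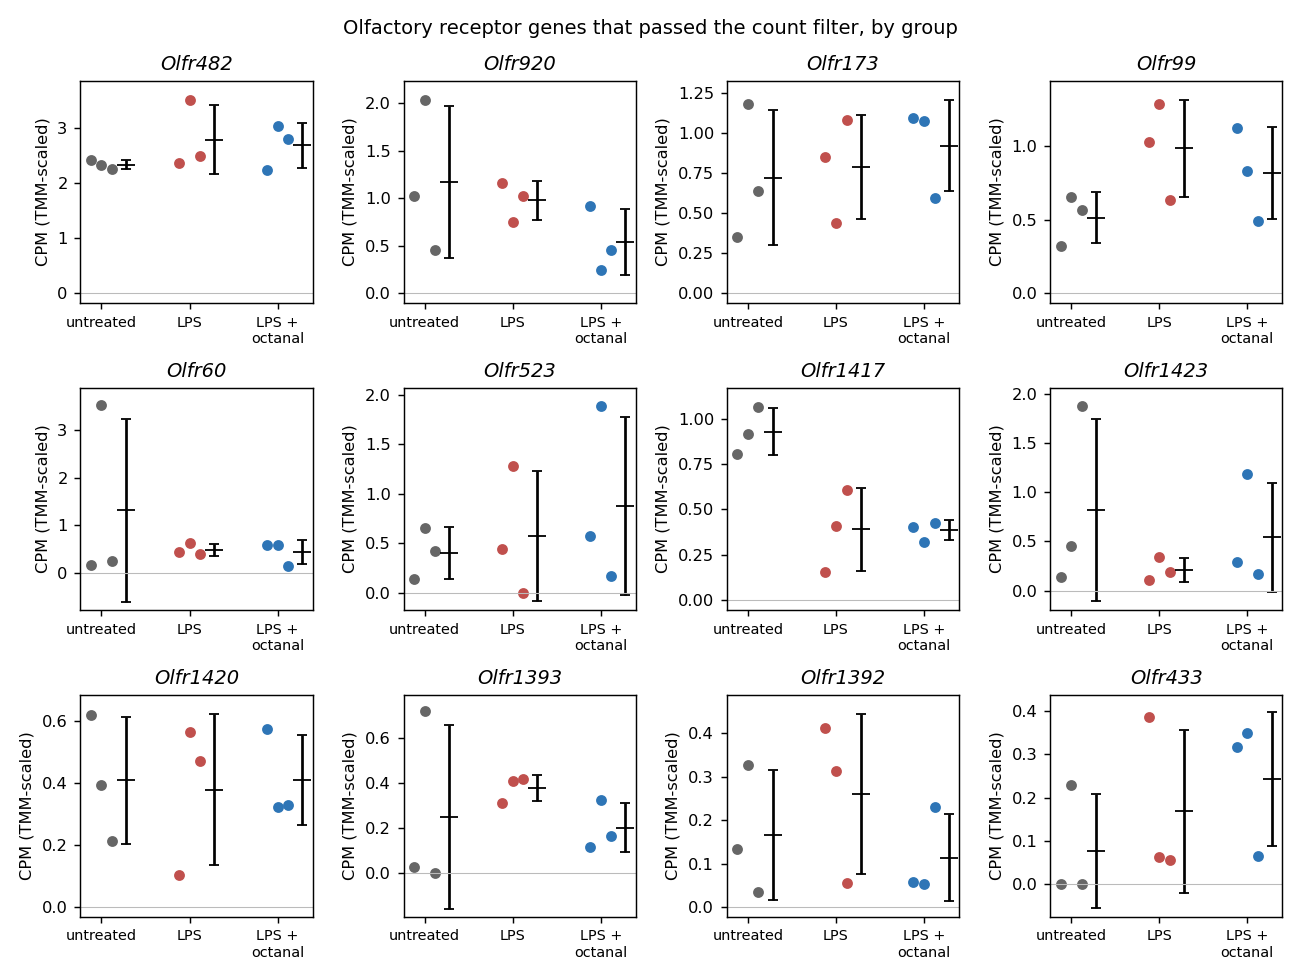
CPM of the 12 olfactory receptor genes that passed the count filter, 1 point per library, with the mean and SD of each group (n = 3) as black bars and a separate axis per gene. The 3 untreated points of Olfr1417 lie above all treated points, and in Olfr60, Olfr1423 and Olfr1393 1 untreated library lies far above the other two.

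The 36 other genes did not pass the filter and were tested only in the fit without one, which called none of them. Their counts are described here. Olfr1425 had 8, 2 and 28 counts in untreated, 7, 7 and 7 in LPS, and 0, 4 and 6 in LPS-octanal libraries. Olfr77 had 4, 0 and 2, then 14, 0 and 6, then 7, 11 and 7. Olfr1444 had 11, 10 and 0, then 2, 0 and 8, then 5, 2 and 9. In these 3 genes, only Olfr77 had groups that did not overlap, all LPS-octanal libraries being above all untreated ones.

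Olfr372 had 2, 5 and 2 counts in untreated, 14, 0 and 4 in LPS, and 0, 8 and 6 in LPS-octanal libraries. Olfr525 had 0, 14 and 0, then 3, 6 and 5, then 5, 0 and 1, and Olfr457 had 2, 7 and 2, then 2, 10 and 6, then 0, 2 and 2. Olfr1426 had 0, 6 and 12, then 4, 0 and 0, then 6, 2 and 0. None of these 4 separated any pair of groups.

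Olfr552 had 0, 6 and 3 counts in untreated, 5, 1 and 4 in LPS, and 5, 6 and 0 in LPS-octanal libraries. Olfr111, in the same stretch of chromosome 17 as Olfr99, had 4, 8 and 8, then 0, 3 and 3, then 0, 3 and 0, and its untreated libraries were above all treated ones. Olfr713 had no count in untreated, 7, 0 and 8 in LPS, and 3, 5 and 2 in LPS-octanal libraries. By the same nominal floor, likely too low, its 0 in untreated stands for up to 0.0313 CPM. Its means were 0.134 ± 0.118 under LPS and 0.0955 ± 0.0351 under LPS-octanal.

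Olfr1366 had 4, 2 and 2 counts in untreated, 5, 0 and 2 in LPS, and 0, 9 and 4 in LPS-octanal libraries. It lies 3993 bp from Zkscan8, a zinc finger gene on the same strand, which stood at 24.3 ± 2.95, 28.4 ± 4.17 and 22.8 ± 2.82 CPM in the 3 groups and was not called (edgeR adjusted p of 0.27 to 0.74).

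The 23 genes of the rest, apart from Olfr1418, had summed counts of 10 to 24 and single-library counts of 0 to 11. They include the class I receptors Olfr543, Olfr544 and Olfr658, of the branch that resembles fish receptors. Olfr544, a receptor of azelaic acid chosen for mention after its values were seen, had 3, 0 and 0 counts in untreated, 0, 3 and 4 under LPS and none in LPS-octanal libraries. Olfr56 had 1, 11 and 0, then 3, 4 and 2, and no counts in the LPS-octanal libraries. Olfr1459 had 2, 0 and 0, then 4, 6 and 4, then 2, 3 and 3, and these were likewise chosen after their values were seen.

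Over all 48 genes, 24 had a higher mean CPM in LPS than in untreated and 24 a lower one, beside 51.0% of all 18866 rows with 10 or more counts that were higher. In LPS-octanal against LPS, 18 were higher and 29 lower (44.8% of all rows higher), and against untreated 17 were higher and 31 lower (48.3% of all rows higher). The median log2 ratio of mean CPM was -0.04, -0.22 and -0.55 in these comparisons, beside 0.02, -0.06 and -0.02 over all rows. With 3 libraries a group and counts this low, these splits describe these libraries only.

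Few genes separated the groups. In LPS against untreated, 3 of 48 had groups that did not overlap (Olfr1459 higher, Olfr1417 and Olfr111 lower), where 45.1% of all rows with 10 or more counts did. In LPS-octanal against LPS there were 4 (Olfr56, Olfr1459, Olfr527 and Olfr784, all lower), where 33.1% of rows did, and against untreated 5 (Olfr77, Olfr1459 and Olfr713 higher, Olfr1417 and Olfr111 lower), where 26.5% did. Each count lies below the share seen over all rows.

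The summed level of the 48 genes was 9.12, 17.8 and 11.2 CPM in the untreated libraries, 10.9, 12.5 and 10.3 in LPS, and 9.75, 12.6 and 8.56 under LPS-octanal. The group means were 12.7 ± 4.56, 11.2 ± 1.12 and 10.3 ± 2.07 CPM and the groups overlapped. The differences were -1.49 CPM in LPS against untreated, -0.93 in LPS-octanal against LPS and -2.42 against untreated. Without untreated replicate 2, the library with the Olfr60 counts, those against untreated became 1.07 and 0.15. Leaving out Olfr60 alone gave group means of 11.4 ± 2.70, 10.7 ± 0.991 and 9.87 ± 1.89 CPM.

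The position of the 48 genes in the genome differed from that of the other 1142. Of the 48, 29 (60.4%) lay within 50 kb of a gene outside the family that passed the count filter, against 11.6% of the other olfactory receptor genes. The median distance was 32087.5 bp against 298346.5 bp. They were unevenly spread over the clusters: chromosome 19 held 12 of them among its 69 olfactory receptor genes, all between 11826803 and 13149549, and chromosome 8 held 3 of 5. Chromosome 2, with 308 olfactory receptor genes the richest, held 2.

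On chromosome 7, all 6 olfactory receptor genes between 140173217 and 140376331 were among the 48: Olfr523, Olfr524, Olfr525, Olfr527, Olfr60 and Olfr530. These are descriptions of a set chosen by its counts. Neighbouring genes are not independent of each other, so no test was made.

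Sequence shared with other transcripts was more frequent among the 48 as well. A stretch of 100 nt or more at 95% identity or more to a tested gene outside the family was found in 14 of them (29.2%), against 13.7% of the other olfactory receptor genes. For stretches of 300 nt or more these shares were 12.5% (6 genes) and 2.80%. The longest of these was that of Olfr482 with Ramac. Gm44859, Gm22158 and Gm45544, which overlap Olfr1423, Olfr164 and Olfr372, were not analysed here. The sources at hand do not say whether counting used the strand.

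Olfr56 spans 156499 bp of chromosome 11 and overlaps 10 other genes, several of them interferon-inducible GTPases. It shares 113 nt at 100% identity with Ifi47, one of these, named after its values were seen, whose exons it overlaps on the same strand. Ifi47 rose from 11.9 ± 7.69 to 42.3 ± 30.5 CPM in LPS (log2 fold change 1.83, SE 0.595, edgeR adjusted p = 0.043). Olfr56 averaged 0.129 ± 0.201 CPM without treatment and 0.0859 ± 0.0358 with LPS, with 0 counts in the LPS-octanal libraries.

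Within the family, 23 of the 48 (47.9%) had a near-identical stretch with another olfactory receptor gene, against 35.1% of the others, and 16 (33.3%) had neither kind of match, against 59.8%. Olfr99, Olfr60, Olfr523 and Olfr1420 were among those without any.

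The genes that carry olfactory signals in the nose were only in part present. Gnal, the olfactory G protein subunit, stood at 9.23 ± 1.20 CPM in untreated, 12.4 ± 0.1201 under LPS and 10.3 ± 2.84 in LPS-octanal libraries. Adcy3, the adenylyl cyclase, stood at 13.9 ± 5.36, 13.8 ± 0.117 and 8.79 ± 2.43 CPM. Neither was called in any comparison (edgeR adjusted p of 0.15 to 0.98). Cnga2, which encodes the main subunit of the olfactory channel, had no count in any library.

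Of 21 genes of olfactory signal transduction, 15 were tested. In LPS against untreated, where 32.8% of all tested genes were called, 5 fell and 0 rose: Arrb2 (beta-arrestin 2), Rgs2 (a regulator of G-protein signalling), Slc8a1 (a sodium-calcium exchanger), Prkaca (a catalytic subunit of protein kinase A) and Pde4a (a phosphodiesterase of cyclic AMP). Pde4a had the highest p of the 5 and is named here only to complete the count. Arrb2 fell from 287.5 ± 39.2 to 179.6 ± 10.3 CPM (log2 fold change -0.68, SE 0.122, edgeR adjusted p = 0.0049) and Rgs2 from 68.9 ± 4.22 to 34.5 ± 2.15 (log2 fold change -0.998, SE 0.211, edgeR adjusted p = 0.0095). The count was 3 when any 1 LPS replicate was left out. Rgs2 and Slc8a1 were also lower in LPS-octanal against untreated (8.67% of all tested genes called), a count of 2 that became 1 without LPS replicate 1, 2 or 3 or LPS-octanal replicate 1 or 2, and 0 without LPS-octanal replicate 3. The median log2 fold change of the 15 was -0.04, beside 0.01 over all tested genes.

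Of 14 genes listed here under receptor transport to the cell surface, 10 were tested, and 2 were called in LPS against untreated (32.8% of all tested genes). Whether each of them acts on olfactory receptors was not examined. Rtp4, an interferon-inducible receptor transporter protein, rose from 3.26 ± 2.15 to 30.8 ± 27.3 CPM in LPS against untreated (log2 fold change 3.24, SE 0.815, edgeR adjusted p = 0.018), a call lost without untreated replicate 1, untreated replicate 3 or LPS replicate 1. Reep3, a receptor accessory protein, fell from 165.1 ± 19.2 to 95.02 ± 20.5 CPM (log2 fold change -0.80, SE 0.178, edgeR adjusted p = 0.012). Rtp1, which carries olfactory receptors to the surface in sensory neurons, had 14 counts in all, and Rtp2 had none. The median log2 fold change of the 10 was 0.08. Without untreated replicate 2, 2 genes of this list fell.

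Of 18 genes known for the choice of 1 receptor per neuron, 14 were tested, and 3 rose in LPS against untreated, where 32.8% of all tested genes were called. These were Ldb1 (a LIM domain-binding cofactor; log2 fold change 0.88, SE 0.194, edgeR adjusted p = 0.011), Cbx1 (heterochromatin protein 1 beta; 0.35, SE 0.0754, edgeR adjusted p = 0.01) and Ehmt1 (a histone methyltransferase; 0.40, SE 0.0978, edgeR adjusted p = 0.016). The count was 1 without LPS replicate 1 or 3 and 5 without LPS-octanal replicate 1. In LPS-octanal against untreated, Atf5, a transcription factor that follows receptor expression, rose from 40.8 ± 3.63 to 88.6 ± 25.0 CPM (log2 fold change 1.12, SE 0.264, edgeR adjusted p = 0.035), together with Cbx1, where 8.67% of all tested genes were called. The count there was 0 or 1 in each of the 9 fits that left out a library. None of these lists had a call in LPS-octanal against LPS, where 0% of all tested genes were called, so this says nothing particular about the lists.

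The listed markers of olfactory sensory neurons were uneven. Of the 12, 4 had fewer than 10 counts in all, Cnga2 and Cartpt among them with none. Omp, the olfactory marker protein, stood at 0.647 ± 0.151 CPM in untreated, 0.734 ± 0.391 under LPS and 0.606 ± 0.382 in LPS-octanal libraries, and Cartpt had no count. Of 12 neuron markers 5 were tested: Omp, Nqo1, Ncam1, Tubb3 and Gnal, whose levels are given above. Tubb3 stood at 1.74 ± 1.92, 6.95 ± 0.938 and 3.075 ± 0.882 CPM in untreated, LPS and LPS-octanal libraries. Ncam1 stood at 4.04 ± 2.745, 0.0932 ± 0.0820 and 0.704 ± 0.483 CPM. In LPS against untreated, where 32.8% of all tested genes were called, Nqo1 rose and Ncam1 fell. In LPS-octanal against untreated, where 8.67% were called, Nqo1 rose and 0 fell. The whole list summed to 33.6 to 41.7 CPM in untreated, 48.5 to 58.0 under LPS and 68.6 to 71.8 under LPS-octanal, most of it from Nqo1, a quinone reductase of many tissues.

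Marker lists of the labelled cell type and of others were summed. All 13 monocyte markers were detected, with summed levels of 6496 to 14520 CPM in untreated, 3353 to 4417 under LPS and 5898 to 8604 in LPS-octanal libraries. Neutrophil markers (14 of 14 detected) summed to 14000 to 27240, 1895 to 2347 and 6109 to 13730 CPM, and T cell markers (11 of 12 listed) to 128 to 626, 1110 to 1349 and 667 to 996. B cell markers (10 of 12 listed) summed to 107 to 356, 152 to 205 and 85.2 to 115 CPM. In each untreated library neutrophil markers summed to more than monocyte markers. Macrophage and erythroid markers were likewise all detected, so detection alone did not tell cell types apart. Macrophage markers summed to 2959 to 4212, 1973 to 2775 and 2706 to 2986 CPM, and erythroid ones to 758 to 1569, 268 to 755 and 361 to 665. These marker levels moved with the groups, and their part in the olfactory receptor counts was not tested. In such bulk samples fewer cells of a type and less RNA per cell cannot be told apart.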

How the data were processed

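Per the file headers, the deposited table pairs whole-number counts, not normalized, with FPKM values, which the authors scaled by length and depth. The submitters' processing notes name GRCm38 as build. The aligner, counter and strand setting were not given in the sources used here. Of the table, 10 lines without values were left out. Library totals were 29594291 to 38388421 counts.

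Positions came from GENCODE M21, in which all 1190 olfactory receptor genes were found. The main test was edgeR 4.0.16 under R 4.3.3 (TMM scaling, filterByExpr by group, quasi-likelihood test, 9 libraries in 1 fit, Benjamini-Hochberg adjustment over 15447 genes). Standard errors are the log2 fold change divided by the root of the F statistic. Alternatives used DESeq2 1.42.0, limma 3.58.1 on log2(FPKM + 0.1), other filters and scalings, the replicate number as a block, and each library left out. Ratios of mean CPM carry a pseudocount of 0.01. GENCODE transcripts were compared with blastn 2.17.0 (megablast, at least 95% identity over 100 nt). The fit was tested on simulated data.

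Genes described per library were those that passed the filter, the next 12 by summed count, any with all counts in 1 group or library, genes overlapping these or tested within 5 kb on the same strand, and the up to 4 called genes of lowest p per list, plus Gnal, Adcy3, Cnga2, Omp and Rtp1. Members and lists were chosen with earlier results of these data known. Fold changes were given where they exceeded their standard error, and for Olfr482 and Olfr1393, a choice made after values were seen. Replicate pairs differed beyond counting error (chi-square per degree of freedom 46.9 to 157).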

Additional observations from a re-analysis of the deposited data

How the results depend on the processing

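The number of olfactory receptor genes counted as detected depended on the minimum: 75 with summed counts of at least 5, 29 with 20, 15 with 50, 59 with a count in at least 3 libraries, and 30 with an FPKM of at least 0.1 in at least 1 library. Calls stayed at 0 in all 3 comparisons under DESeq2 size factors, DESeq2's Wald test, no filter, a filter at 1 CPM, without the 4735 rows named NewGene, the 6 libraries of 2 groups alone and limma. Some of these tested fewer than 12 of the genes: the filter at 1 CPM 4, DESeq2's Wald test 11, 1 (LPS-octanal against LPS) and 11, limma 11, and the 6 libraries alone 11, 11 and 9 (LPS-octanal against untreated). With a library left out the count of called genes ranged from 0 to 1 in LPS against untreated, the 1 being Olfr1393 without untreated replicate 2. Of 36 fold changes of the 12 tested genes, 20 changed sign under at least 1 alternative. With a library left out, the log2 fold change of Olfr482 in LPS-octanal against LPS ranged from -0.13 to 0.19, that of Olfr60 from -1.98 to 1.20 in LPS and from -2.10 to 1.08 in LPS-octanal against untreated, and that of Olfr1393 in LPS against untreated from 0.03 to 4.33. The cause was not tested.

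The summed CPM differences kept their sign under all scalings and choices of genes (-0.66 to -2.06 in LPS against untreated, -0.67 to -1.60 in LPS-octanal against LPS, -1.53 to -3.13 against untreated), also without Olfr60 or without the 6 genes that share 300 nt or more with a gene outside the family, both chosen after seeing the data. With a library left out they ranged from -3.29 to 1.07, -2.07 to -0.06 and -4.21 to 0.15.

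Calls in the gene lists moved as follows. Transduction genes lower in LPS numbered 3 with limma and 3 to 5 with a library left out. Those lower in LPS-octanal against untreated numbered 4 with DESeq2's Wald test, 0 with the 6 libraries alone and 0 to 3 with a library left out. In LPS, trafficking genes that rose numbered 2 with limma and 0 to 1 with a library left out, and those that fell 1 to 2. Choice genes that rose in LPS numbered 5 with the 6 libraries alone, 7 with limma and 1 to 5 with a library left out. In LPS-octanal against untreated they numbered 1 without a filter, 1 with the 6 libraries alone, 1 with limma, 0 with the replicate block and 0 to 1 with a library left out.

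The replicate numbers did not pair the libraries: same-numbered deviations correlated at -0.09 to 0.18, others at -0.15 to 0.21, and 0 libraries correlated best with their own number in both other groups. With the replicate block, 0 olfactory receptor genes were called in each comparison.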

Other observations

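Other chemosensory receptor families were sparse as well. Of 206 Vmn1r rows (vomeronasal receptors type 1) 2 had 10 or more summed counts, of 35 Tas2r rows (bitter taste receptors) 2, and of 15 Taar rows (trace amine-associated receptors) 0. Vmn2r genes (vomeronasal receptors type 2) reached that minimum in 11 of 121 rows (9.09%), against 4.03% of olfactory receptor rows, and Vmn2r96 held 3159 of their 5183 counts.

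The formyl peptide receptor gene Fpr1, which detects bacterial peptides on myeloid cells, stood at 96.6 ± 23.0 CPM in untreated libraries, 396.5 ± 56.6 under LPS and 760.1 ± 118 under LPS-octanal (n = 3 each). It rose in LPS against untreated (log2 fold change 2.04, SE 0.208, edgeR adjusted p = 0.00068) and in LPS-octanal against untreated (2.98, SE 0.215, edgeR adjusted p = 0.00052). Of 28 other chemosensory receptor genes listed 13 were tested, and 3 rose in the former comparison and 2 in the latter, with 0 that fell. Over all tested genes 32.8% and 8.67% were called in these comparisons.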
